A study of Mus musculus with 4 samples.

Results

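The classical and related cadherins and the non-clustered protocadherins were followed across the cells of the mouse kidney cortex. Members were all gene symbols made of Cdh or Pcdh directly followed by a number, with at most an x or y behind it, and 31 of the 21046 genes measured met this. Nuclear RNA had been measured by droplet-based single-nucleus sequencing (10X Chromium), in which every RNA molecule counted carries its own molecular identifier (UMI), in 4 libraries on C57BL/6J. The libraries carried endothelial Klf4 deletion with loss of Nos3 (genotype label Klf4deltaECNos3-/-, called Klf4 dEC Nos3 null), endothelial Klf4 deletion alone (Klf4deltaEC, called Klf4 dEC), loss of Nos3 alone (Nos3-/-, called Nos3 null) and floxed Klf4 without the deletion (Klf4flox/flox, called control). Klf4 encodes a transcription factor, and Nos3 the nitric oxide synthase of endothelium. Which driver deletes Klf4, whether the Nos3-/- line carries the floxed Klf4 allele, how many mice a library holds, and their age and sex are not stated in the sources used here. The series title sets the question as what knockdown of Klf4 in endothelium does with Nos3 present and with Nos3 missing.

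Cadherins are cell-surface proteins that hold neighbouring cells together in a calcium-dependent way. The classical members (Cdh1, also called E-cadherin, Cdh2, N-cadherin, and their relatives) reach through the membrane and bind catenins, which link them to the actin skeleton. The protocadherins lack that catenin-binding tail, and most are best known from the nervous system. In the kidney, epithelial cells along the nephron are known to use different cadherins from one segment to the next, and endothelial cells join through Cdh5, VE-cadherin.

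All levels below are mean UMIs per 10000 UMIs over the nuclei of a cluster and library. Each genotype has 1 library, so values are described and there is no test. Intervals in brackets are 95% counting intervals on inferred UMIs, exact Poisson for levels and exact binomial for ratios. Differences between mice, dissections or preparations are not in them, only counting error. By inference there were 5491 nuclei in Klf4 dEC Nos3 null, 6883 in Klf4 dEC, 7004 in Nos3 null, against 6766 in control. Median UMI totals per nucleus, averaged over clusters by their nuclei, were 5390 in Klf4 dEC Nos3 null, 4122 in Klf4 dEC, 2351 in Nos3 null, against 4753 in control. The authors' 23 clusters were named from marker genes that include no cadherin, and 4 of them (7, 13, 17 and 21) met no single name. Markers of smooth muscle and of stromal cells both peaked in cluster 13, and those of lymphocytes and macrophages both peaked in cluster 21. Cluster 12, named proximal tubule-like, was the shallowest cluster in every library. Its median UMI total per nucleus was 789 in Klf4 dEC Nos3 null, 782 in Klf4 dEC, 1016 in Nos3 null, against 782 in control. The clustering itself used the measured genes, so the spread of a member over clusters is a description and no test.

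Several facts of the libraries bear on the comparisons. The targeted genes were not lower where the labels place their deletion. Klf4 stood in endothelial cell-like nuclei at 0.824 in Klf4 dEC Nos3 null, 0.779 in Klf4 dEC, 0.445 in Nos3 null, against 0.621 in control, and Nos3 at 2.07 in Klf4 dEC Nos3 null, 0.930 in Klf4 dEC, 1.52 in Nos3 null, against 1.26 in control. Reads outside the deleted part of a gene would not show its loss, and that part is not stated in the sources used here. The genotype names below therefore stand for the libraries labelled so. The library labelled Nos3 null stood apart from the others. In the 14 of clusters 0 to 19 not named proximal tubule-like, the summed level of 10 proximal tubule markers had a median of 11.3 in Klf4 dEC Nos3 null, 15.3 in Klf4 dEC, 47.4 in Nos3 null, against 14.6 in control, with sums of 33.5 to 119 in Nos3 null and 11.9 to 115 in control. No marker was at 0, and 10 of 10 were above control in Nos3 null. The summed 13 mitochondrially encoded genes had medians over 20 clusters of 52.3 in Klf4 dEC Nos3 null, 51.4 in Klf4 dEC, 22.5 in Nos3 null, against 53.8 in control. Leaving out the library labelled Nos3 null changed the leading cluster of 0 of the 14 members described by cluster below.

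The promoter sequences are shown for 4 members that stand out by their levels below: Pcdh17 for endothelium and proximal tubule, Pcdh9 for cluster 13, Cdh6 for the thin limb, and Cdh18 for its differences between libraries. No level or comparison below uses these sequences, and their bearing on the levels was not tested. RefSeq's promoter table for GRCm38.p6, the build that mm10 names, held 19 of the 31 members. Each line gives, on the gene's own strand, the 250 bases before the transcript start that this table lists, with every CpG (a C followed by a G) in capitals. For Pcdh17 that start is the first base of RefSeq's gene span, while for Pcdh9 and Cdh6 it lies 2.15 kb and 2.73 kb inside the span. For Cdh18 it lies 488 kb inside, so its window is that of an inner start. Pcdh17 lies on the plus strand at chr14:84443313-84443562, Pcdh9 on the minus strand at chr14:93890680-93890929 (the first of 2 promoters listed), Cdh6 on the minus strand at chr15:13173676-13173925 and Cdh18 on the plus strand at chr15:23036213-23036462.
Pcdh17: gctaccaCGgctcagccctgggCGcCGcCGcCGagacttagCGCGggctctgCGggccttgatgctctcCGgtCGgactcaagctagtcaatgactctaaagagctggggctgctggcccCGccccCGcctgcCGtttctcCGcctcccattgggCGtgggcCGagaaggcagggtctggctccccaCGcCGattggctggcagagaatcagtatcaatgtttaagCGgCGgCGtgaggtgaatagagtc
Pcdh9: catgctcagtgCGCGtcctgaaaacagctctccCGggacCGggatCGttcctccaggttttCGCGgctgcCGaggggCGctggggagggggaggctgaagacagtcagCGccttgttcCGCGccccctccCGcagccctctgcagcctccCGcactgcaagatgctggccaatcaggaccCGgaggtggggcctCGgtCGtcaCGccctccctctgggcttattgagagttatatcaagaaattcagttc
Cdh6: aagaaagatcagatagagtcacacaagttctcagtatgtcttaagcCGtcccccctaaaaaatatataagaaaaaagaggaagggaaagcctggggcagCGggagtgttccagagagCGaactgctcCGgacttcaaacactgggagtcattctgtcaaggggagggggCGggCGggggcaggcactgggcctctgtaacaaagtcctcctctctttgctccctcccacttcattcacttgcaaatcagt
Cdh18: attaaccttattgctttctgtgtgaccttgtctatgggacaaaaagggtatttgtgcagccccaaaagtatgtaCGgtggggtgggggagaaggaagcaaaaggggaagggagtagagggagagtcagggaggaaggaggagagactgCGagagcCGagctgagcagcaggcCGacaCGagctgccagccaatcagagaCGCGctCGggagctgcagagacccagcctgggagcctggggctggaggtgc
The windows of Pcdh17 and Pcdh9 hold 21 and 18 CpGs, and those of Cdh6 and Cdh18 hold 6 and 8. The median over all 32851 promoters in the table was 6. Both strands were searched for 4 short motifs, and none of the 4 windows held any of them. The E-box, spelled CAGGTG, was held by 17.2% of all promoters in the table. A TATA box, TATAAA, was held by 12.4%. An ETS core, CCGGAAG, was held by 6.91%. A GATA site, AGATAA, was held by 9.99%.

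Of the 31 members, 14 reached 0.5 UMIs per 10000 in the mean of at least 1 cluster, 13 reached 1, and 3 reached 5 (Cdh1, Pcdh17 and Cdh13). The other 17 had highest cluster means between 0.00302 (Pcdh10) and 0.476 (Pcdh12). All 4 type I classical cadherins reached 0.5, against 3 of 13 type II classical cadherins, 3 of 4 delta-1 protocadherins and 1 of 5 delta-2 protocadherins. In all, 96 of 713 pairs of a member and a cluster were at or over 0.5. Of the 14 members, 4 reached 0.5 in 10 or more clusters (Cdh1, Cdh16, Pcdh7 and Pcdh17) and 4 in 1 cluster (Cdh5, Cdh11, Cdh23 and Pcdh11x). For 9 of the 14, all 4 libraries had their highest level in the cluster with the highest mean.

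**Figure D1:**
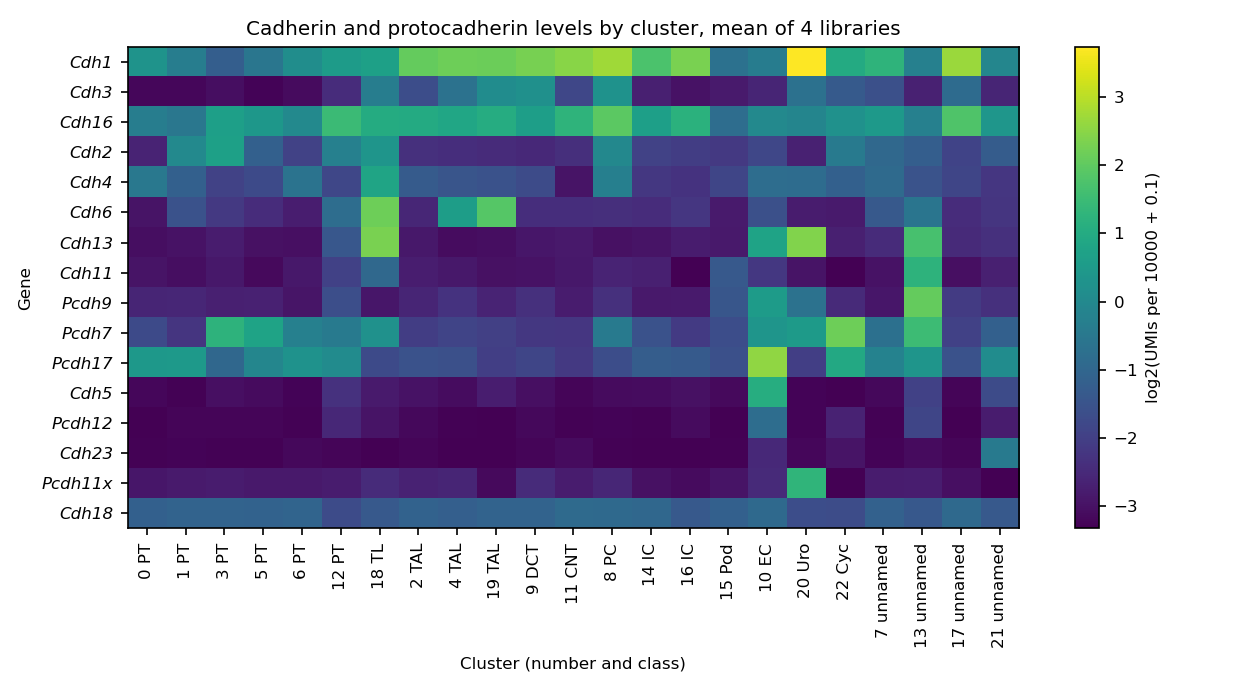
Levels of 16 members (rows) in the 23 clusters (columns), as log2 of the mean of 4 libraries in UMIs per 10000 plus 0.1 (PT, proximal tubule-like; TL, thin limb-like; TAL, thick ascending limb-like; DCT, distal convoluted tubule-like; CNT, connecting tubule-like; PC, principal cell-like; IC, intercalated cell-like; Pod, podocyte-like; EC, endothelial cell-like; Uro, urothelium-like; Cyc, cycling cell-like). Cdh1 is brightest in urothelium-like nuclei at 13.2, Pcdh17 in endothelial cell-like nuclei at 5.76, and Cdh18 is nearly even across the columns.

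Cdh1, the adhesion protein of most epithelia, was the member with the most UMIs in 12 of 23 clusters. Its mean was 13.2 in urothelium-like nuclei, with 10.2 (9.30 to 11.3) in Klf4 dEC Nos3 null, 16.9 (15.3 to 18.7) in Klf4 dEC, 12.9 (8.63 to 18.5) in Nos3 null, against 12.6 (11.1 to 14.2) in control. All 4 libraries had their highest Cdh1 level there. This cluster, 20, held 88 nuclei in Klf4 dEC Nos3 null, 69 in Klf4 dEC, 12 in Nos3 null, against 59 in control. Along the nephron Cdh1 was low in the proximal tubule-like clusters (means of 0.329 to 1.36) and the podocyte-like cluster (0.516). It was higher in thick ascending limb-like (4.11 to 4.44), distal convoluted tubule-like (4.78), connecting tubule-like (5.49) and principal cell-like (6.48) clusters. Intercalated cell-like clusters 14 and 16 had 3.25 and 4.86. The order of the 23 clusters by Cdh1 was close to the same in every library, and the lowest rank correlation between any pair of libraries was 0.93 (a description, since the points of a library share its depth). Endothelial cell-like nuclei, whose junction cadherin is Cdh5, held 0.677, and how much of such low levels is free RNA was not tested.

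Cdh3, P-cadherin, lies beside Cdh1 on chromosome 8, with 46.4 kb between them, and followed it across clusters with a rank correlation of 0.69 (23 clusters, a description). It stood at 1.11 in principal cell-like and 1.06 in distal convoluted tubule-like nuclei, and those means do not differ beyond the range over libraries. In principal cell-like nuclei it was 1.71 in Klf4 dEC Nos3 null, 1.27 in Klf4 dEC, 0.533 in Nos3 null, against 0.928 in control. Unlike Cdh1, it was 0.981 in thick ascending limb-like cluster 19 but 0.529 in cluster 4 of the same class.

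Cdh16, known as kidney-specific cadherin, has more extracellular cadherin repeats than the classical members and a short cytoplasmic tail. It reached 0.5 in 22 clusters, with its highest means in principal cell-like nuclei (3.76) and in unnamed cluster 17 (3.39). Proximal tubule-like cluster 12, the shallowest cluster, had 2.69, while clusters 5, 0 and 1 of the same class had 1.23, 0.691 and 0.594. The part of depth in this was not tested. Cdh16 spans 22.5 kb and Cdh1 66.9 kb. Per 100 kb of gene span, Cdh16 was the highest member in 20 of 23 clusters and Cdh1 in 2, and principal cell-like nuclei had 16.7 UMIs per 10000 per 100 kb for Cdh16 and 9.69 for Cdh1. Cdh16 also stood at 0.907 in endothelial cell-like nuclei and at 1.20 in cluster 21. How much of these levels is free RNA was not tested.

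Cdh2 ran against Cdh1 over the clusters, with a rank correlation of -0.44. It led in proximal tubule-like cluster 3 with a mean of 1.52, with 1.29 (1.10 to 1.51) in Klf4 dEC Nos3 null, 2.00 (1.79 to 2.23) in Klf4 dEC, 1.20 (1.02 to 1.39) in Nos3 null, against 1.57 (1.38 to 1.77) in control. Klf4 dEC stood above the other 3 libraries, whose intervals overlap in part. The proximal tubule-like clusters did not share this level: cluster 1 had 0.907 and cluster 12 had 0.747, while clusters 0, 5 and 6 were under 0.5. Outside that class it was 1.18 in thin limb-like and 0.878 in principal cell-like nuclei. In Nos3 null the thin limb-like level, 1.57, was above that of cluster 3. Cdh4, R-cadherin, stood highest in thin limb-like nuclei at 1.64 and at 0.720 in principal cell-like nuclei, and cluster 18 was its highest in all 4 libraries.

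Cdh6, K-cadherin, is known from the early nephron, where it marks cells that become proximal tubule. In these cortex nuclei its mean was 4.39 in thin limb-like cluster 18, with 3.24 (2.64 to 3.93) in Klf4 dEC Nos3 null, 4.64 (3.84 to 5.55) in Klf4 dEC, 4.46 (3.43 to 5.70) in Nos3 null, against 5.22 (4.51 to 6.01) in control. The 3 thick ascending limb-like clusters differed in it. Cluster 19 had 3.56, cluster 4 had 1.41 and cluster 2 had 0.0706. In cluster 4 the level was 1.35 in Klf4 dEC Nos3 null, 1.88 in Klf4 dEC, 1.18 in Nos3 null, against 1.23 in control. In cluster 2 it was 0.0252 in Klf4 dEC Nos3 null, 0.0843 in Klf4 dEC, 0.148 in Nos3 null, against 0.0246 in control. All 4 libraries placed cluster 4 above cluster 2. Proximal tubule-like clusters were all under 0.5, the highest being cluster 12 at 0.469.

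Cdh13, T-cadherin, is held to the membrane by a lipid anchor and lacks the catenin-binding tail. It had comparable means in urothelium-like (5.14) and thin limb-like (4.92) nuclei, then 3.08 in cluster 13 and 1.61 in endothelial cell-like nuclei. Those were the 4 clusters at or over 0.5. In thin limb-like nuclei it stood at 6.24 in Klf4 dEC Nos3 null, 3.09 in Klf4 dEC, 5.53 in Nos3 null, against 4.81 in control, and the library labelled Klf4 dEC was lowest. Without Klf4 dEC, thin limb-like cluster 18 had the highest mean of Cdh13 in place of urothelium-like cluster 20.

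In cluster 13, which carried both smooth muscle and stromal markers, the leading members were Pcdh9, Cdh13, Pcdh7 and Cdh11. Pcdh9, a delta-1 protocadherin, averaged 4.09 there and its values were close: 4.40 in Klf4 dEC Nos3 null, 4.24 in Klf4 dEC, 3.68 in Nos3 null, against 4.04 in control. Cdh11, a cadherin of mesenchymal cells, averaged 2.25 and reached 0.5 in no other cluster. It was 1.62 (1.12 to 2.26) in Klf4 dEC Nos3 null, 2.78 (2.36 to 3.26) in Klf4 dEC, 2.04 (1.65 to 2.50) in Nos3 null, against 2.56 (2.03 to 3.19) in control. Podocyte-like nuclei had 0.295.

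Pcdh7, a delta-1 protocadherin, was spread over 11 clusters. Its highest mean, 4.43, was in cycling cell-like cluster 22, which held 12 to 17 nuclei per library. Cluster 13 followed with 2.74, then proximal tubule-like clusters 3 (2.26) and 5 (1.60). In cluster 3 it was 2.10 (1.86 to 2.38) in Klf4 dEC Nos3 null, 3.36 (3.09 to 3.65) in Klf4 dEC, 1.03 (0.867 to 1.21) in Nos3 null, against 2.53 (2.30 to 2.78) in control. Klf4 dEC was highest and Nos3 null lowest. In cluster 22 the order of the libraries was the same, at 3.36 in Klf4 dEC Nos3 null, 7.38 in Klf4 dEC, 2.22 in Nos3 null, against 4.75 in control.

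Pcdh17, a delta-2 protocadherin, was the leading member in endothelial cell-like nuclei, also per 100 kb of gene span (6.12). It additionally led proximal tubule-like clusters 0, 1 and 6 with 1.26, 1.30 and 1.10, but stood under 0.5 in cluster 3 of that class. Cluster 3 was led by Pcdh7 and Cdh2. Across the 23 clusters Pcdh17 ran against Cdh1 with a rank correlation of -0.66, the lowest among the pairs of members that reached 0.5. The 3 remaining members over 0.5 each kept to a single cluster. Pcdh11x stood at 2.35 in urothelium-like nuclei (1.32 to 3.55 over libraries) against a next highest mean of 0.0837. In Nos3 null that cluster held 12 nuclei. Cdh5 kept to endothelial cell-like nuclei. Cdh23, part of the tip links of inner-ear hair cells, stood at 0.632 in cluster 21, on 2 to 7 inferred UMIs per library.

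The endothelial cell-like cluster holds the cells in which the labels place the Klf4 deletion, with nuclei numbering 186 in Klf4 dEC Nos3 null, 284 in Klf4 dEC, 327 in Nos3 null, against 270 in control. Of the endothelial members, Pcdh17 was 4.29 (3.62 to 5.05) in Klf4 dEC Nos3 null, 9.49 (8.57 to 10.5) in Klf4 dEC, 2.92 (2.42 to 3.49) in Nos3 null, against 6.34 (5.60 to 7.15) in control. The 4 intervals do not overlap, with Klf4 dEC highest and Nos3 null lowest. Cdh5, the adhesion protein of endothelial junctions, was 2.70 (2.17 to 3.32) in Klf4 dEC Nos3 null, 1.93 (1.53 to 2.40) in Klf4 dEC, 1.40 (1.06 to 1.82) in Nos3 null, against 1.95 (1.55 to 2.42) in control. Klf4 dEC and control were level, and the interval of Nos3 null did not reach that of Klf4 dEC Nos3 null. Pcdh12, an endothelial protocadherin once called VE-cadherin-2, stood at 0.576 in Klf4 dEC Nos3 null, 0.398 in Klf4 dEC, 0.370 in Nos3 null, against 0.560 in control, with overlapping intervals. The summed level of 8 endothelial markers was 97.3 in Klf4 dEC Nos3 null, 123 in Klf4 dEC, 60.1 in Nos3 null, against 104 in control. That of the 10 proximal tubule markers in this cluster was 20.3 in Klf4 dEC Nos3 null, 25.3 in Klf4 dEC, 59.9 in Nos3 null, against 29.5 in control. Their part in the differences was not tested.

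**Figure D2:**
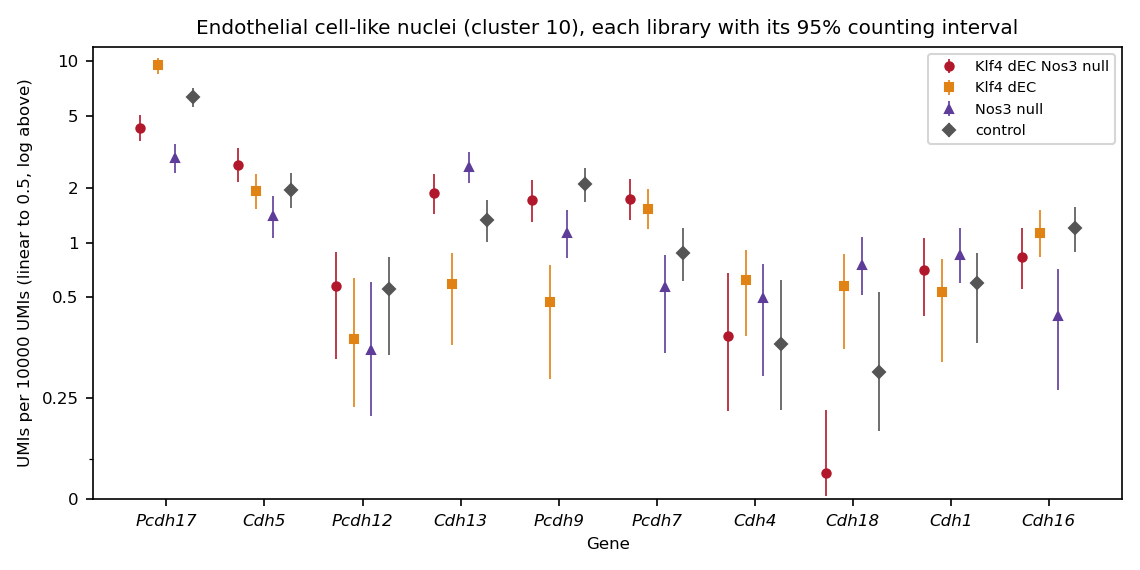
Levels of 10 members in endothelial cell-like nuclei, in UMIs per 10000 (linear to 0.5, log above), 1 point per library with its 95% counting interval. Pcdh17 separates the 4 libraries between 2.92 and 9.49, and Pcdh9 and Cdh13 are lowest in Klf4 dEC at 0.489 and 0.592.

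In endothelial cell-like nuclei, 2 of 10 members that entered passed a 2-fold limit between Klf4 dEC and control, and both were lower in Klf4 dEC. The limit was a log2 ratio of (level + 0.1) of at least 1 or at most -1, for genes with the higher library at 0.5 or more, which understates the ratio of low genes. Among all 4371 genes entering there, 3.39% passed it in either direction. Pcdh9 fell to 0.489 in Klf4 dEC, against 2.10 in control (log2 ratio -1.90; interval without the added 0.1, -2.88 to -1.39). Cdh13 fell to 0.592 in Klf4 dEC, against 1.33 in control (-1.05; -1.92 to -0.46). Pcdh17 was higher by 0.57 (0.35 to 0.81) and did not pass the limit, and Cdh5 differed by -0.01 (-0.48 to 0.45). The other members within the limit were Pcdh7 (0.75; 0.21 to 1.45), Cdh18 (0.71; -0.15 to 1.98), Cdh4 (0.57; -0.26 to 1.69), Cdh16 (-0.06; -0.67 to 0.53), Cdh1 (-0.12; -1.04 to 0.74) and Pcdh12 (-0.41; -1.50 to 0.48). Of these, the counting interval of Pcdh7 did not reach 0. These are differences between individual libraries.

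Between Nos3 null and control 3 of 9 members passed the limit, against 13.8% of all genes in either direction. Pcdh17 fell to 2.92 in Nos3 null, against 6.34 in control (-1.09; -1.44 to -0.80), and Cdh16 to 0.454 in Nos3 null, against 1.20 in control (-1.23; -2.25 to -0.60). The member that was higher was Cdh18, at 0.758 in Nos3 null and 0.314 in control (1.05; 0.30 to 2.32). Within the limit, Cdh13 was higher (0.92; 0.49 to 1.47) and Pcdh9 lower (-0.84; -1.44 to -0.36) with intervals that did not reach 0, and Cdh1 (0.46), Cdh5 (-0.44), Pcdh12 (-0.49) and Pcdh7 (-0.54) had intervals that did. Between Klf4 dEC Nos3 null and Nos3 null 2 of 9 members passed, against 17.9% of all genes. Pcdh7 rose to 1.74 in Klf4 dEC Nos3 null, against 0.569 in Nos3 null (1.46; 0.90 to 2.38). Cdh18 fell to 0.0641 in Klf4 dEC Nos3 null, on 2 inferred UMIs, against 0.758 in Nos3 null. Pcdh9 was 1.73 in Klf4 dEC Nos3 null and 1.13 in Nos3 null (0.57; 0.03 to 1.20), within the limit, as were Cdh5 (0.90; 0.45 to 1.45), Pcdh17 (0.54; 0.19 to 0.92) and Cdh13 (-0.45; -0.94 to -0.01). The intervals of Cdh16 (0.76), Pcdh12 (0.52) and Cdh1 (-0.24) held 0. The difference between both Klf4 comparisons was not tested. With Klf4 dEC Nos3 null set against Klf4 dEC, 4 of 10 members passed, against 4.93% of all genes. Pcdh9 (1.63) and Cdh13 (1.52) were higher and Pcdh17 (-1.13) and Cdh18 (-2.05) lower in Klf4 dEC Nos3 null. Cdh5 (0.47; 0.04 to 0.94) lay within the limit, and Pcdh12 (0.44), Cdh1 (0.34), Pcdh7 (0.17), Cdh16 (-0.41) and Cdh4 (-0.51) had intervals that held 0. With Klf4 dEC Nos3 null set against control, 0 of 8 members passed, against 4.40% of all genes. Pcdh7 (0.92; 0.38 to 1.63), Cdh5 (0.45; 0.02 to 0.92) and Pcdh17 (-0.55; -0.87 to -0.26) had intervals without 0, while those of Cdh13 (0.47), Cdh1 (0.22), Pcdh12 (0.03), Pcdh9 (-0.27) and Cdh16 (-0.47) held it. The 5 comparisons share libraries, so their values are not independent.

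Over clusters 0 to 19, each pair of a member and a cluster was counted once. For Klf4 dEC over control, 7 pairs were higher and 7 lower of 92, or 15.2% in either direction. Cdh18 gave 3 of the higher pairs, and without it 4 pairs were higher and 7 lower of 87 (12.6%). Pairs of Cdh18 entered only through Klf4 dEC, since Cdh18 in control was at most 0.314, and could only be higher. Of the pairs of all genes 2.20% were higher and 1.95% lower, 4.15% in either direction. Pcdh7 gave the highest values. It rose in thin limb-like nuclei to 2.46 in Klf4 dEC, against 0.690 in control (log2 ratio 1.70), and in principal cell-like nuclei to 1.44 in Klf4 dEC, against 0.524 in control (1.30). Cdh18 in cluster 3 (1.18) came next. The lowest were Cdh13 in cluster 12 (-2.67, on 7 inferred UMIs in control), Pcdh9 in podocyte-like nuclei (-2.61, with 0.0296 in Klf4 dEC and 0.691 in control) and Pcdh9 in endothelial cell-like nuclei (-1.90). With the entry level at 1, 2 of 57 pairs were higher and 3 lower (8.77%), against 3.21% of all pairs.

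For Nos3 null over control, 27 pairs were higher and 14 lower of 114, or 36.0% in either direction. Of all pairs 6.02% were higher and 4.81% lower, 10.8% in either direction. Cdh18 alone gave 17 of the higher pairs. Its level in control was at most 0.314, so its pairs entered only through Nos3 null and could only be higher. Without Cdh18 the direction turned, with 10 pairs higher and 14 lower of 95 (25.3%). With the entry level at 1, 1 pair was higher and 8 lower of 52 (17.3%, against 10.0% of all pairs). The highest was Cdh2 in cluster 17, at 0.556 in Nos3 null, on 14 inferred UMIs, against 0 in control (2.71; interval from 2.05 up). With 3 counts set in the control the ratio of levels is 5.82-fold, which leaves out the counting error of Nos3 null. Next came Cdh18 in podocyte-like nuclei (2.61; 0.873 in Nos3 null and 0.0591 in control) and Cdh11 in thin limb-like nuclei (2.26; 0.927 in Nos3 null, on 13 inferred UMIs, and 0.115 in control, on 4). The lowest were Pcdh19 in cluster 13 (-2.28), Cdh2 in principal cell-like nuclei (-1.57; 0.452 in Nos3 null and 1.54 in control) and Pcdh7 in proximal tubule-like cluster 5 (-1.47; 0.566 in Nos3 null and 1.75 in control). Pcdh17 was higher past the limit in thick ascending limb-like clusters 2 and 4 and in cluster 17, at 0.556, 0.507 and 0.576 in Nos3 null, against 0.116, 0.146 and 0.0919 in control, and in proximal tubule-like cluster 12, at 1.45 in Nos3 null and 0.636 in control, on 7 inferred UMIs. In clusters 2, 4 and 17 the summed proximal tubule markers were 46.0, 42.7 and 49.5 in Nos3 null and 13.6, 13.2 and 13.4 in control. In proximal tubule-like clusters 0, 1, 5 and 6, Pcdh17 was lower in Nos3 null (0.818 in Nos3 null and 1.22 in control in cluster 0, for example). In cluster 3 of that class Pcdh17 was higher, at 0.510 in Nos3 null and 0.308 in control, within the limit. The part of the proximal tubule RNA in these values was not tested.

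Between Klf4 dEC Nos3 null and Nos3 null, 13 pairs were higher and 26 lower in Klf4 dEC Nos3 null of 110, or 35.5%. Cdh18 in Klf4 dEC Nos3 null was at most 0.255, so its pairs entered only through Nos3 null and could only be lower. Without Cdh18 the direction turned, with 13 higher and 8 lower of 91 (23.1%). Of all pairs 6.69% were higher and 6.29% lower, 13% in either direction. With the entry level at 1, 11 of 58 pairs were higher and 0 lower (19%, against 12.1% of all pairs). Cdh16 gave 8 of the 13 higher pairs, with the highest log2 ratio in proximal tubule-like cluster 12 (1.96; 4.07 in Klf4 dEC Nos3 null and 0.973 in Nos3 null). Pcdh7 in thin limb-like nuclei (1.85) and Cdh16 in thin limb-like nuclei (1.73) followed. The lowest was Cdh18 in cluster 12 (-2.90), where Klf4 dEC Nos3 null was at 0 and the interval reached up to -0.48. With 3 counts set in Klf4 dEC Nos3 null the ratio of levels is 1.93-fold. Pcdh17 in intercalated cell-like cluster 16 (-2.58; 0.0226 in Klf4 dEC Nos3 null, on 1 inferred UMI, and 0.633 in Nos3 null, on 9) and the next Cdh18 value (-2.39, endothelial cell-like) followed.

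Between Klf4 dEC Nos3 null and Klf4 dEC, 3 pairs were higher and 10 lower in Klf4 dEC Nos3 null of 91, or 14.3%, and 3 higher and 5 lower of 86 (9.30%) without Cdh18. Pairs of Cdh18 entered only through Klf4 dEC, since Cdh18 in Klf4 dEC Nos3 null was at most 0.255, and could only be lower. Of all pairs 3.03% were higher and 2.37% lower, 5.40% in either direction. With the entry level at 1, 2 pairs were higher and 4 lower of 61 (9.84%, against 4.59% of all pairs). The highest were Pcdh9 (1.63) and Cdh13 (1.52) in endothelial cell-like nuclei and Cdh3 in cluster 17 (1.56). The lowest was Pcdh7 in principal cell-like nuclei, at 0.191 in Klf4 dEC Nos3 null and 1.44 in Klf4 dEC (-2.40), followed by Cdh18 in endothelial cell-like (-2.05) and connecting tubule-like (-1.79) nuclei. Between Klf4 dEC Nos3 null and control, 3 pairs were higher and 5 lower in Klf4 dEC Nos3 null of 86, or 9.30%. Of all pairs 2.97% were higher and 2.01% lower, 4.98% in either direction. With the entry level at 1, 1 pair was higher and 0 lower of 58 (1.72%, against 3.96% of all pairs). The highest were Cdh3 in cluster 17 (1.34), Cdh6 in thick ascending limb-like cluster 19 (1.07; 5.12 in Klf4 dEC Nos3 null and 2.38 in control) and Cdh6 in cluster 13 (1.02). The lowest were Pcdh9 in podocyte-like nuclei (-2.09; 0.0863 in Klf4 dEC Nos3 null and 0.691 in control), Cdh13 in cluster 12 (-1.75) and Pcdh1, a delta-1 protocadherin, in cluster 13 (-1.64; 0.129 in Klf4 dEC Nos3 null and 0.613 in control). Some of these rest on few inferred UMIs in Klf4 dEC Nos3 null and control. Cdh3 in cluster 17 had 17 and 8 (interval 0.37 to 3.01). The intervals of Cdh6 in cluster 13 (-0.06 to 2.69, on 14 and 9) and Cdh13 in cluster 12 (-7.21 to 0.43, on 1 and 7) held 0.

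Cdh16 was lower in Nos3 null than in control in most clusters. Its median over the 20 clusters was 2.02 in Klf4 dEC Nos3 null, 1.5 in Klf4 dEC, 0.962 in Nos3 null, against 1.56 in control. It was lower in Nos3 null than in control in 16 of 20 clusters, 5 of them past the limit, and higher in Klf4 dEC Nos3 null than in Nos3 null in 20 of 20, 8 of them past it. In principal cell-like nuclei it stood at 4.96 (4.52 to 5.43) in Klf4 dEC Nos3 null, 5.15 (4.69 to 5.65) in Klf4 dEC, 1.88 (1.41 to 2.45) in Nos3 null, against 3.03 (2.68 to 3.41) in control. In proximal tubule-like clusters 0, 1, 5 and 6 Nos3 null was at 0.644, 0.517, 1.31 and 0.887, against 0.570, 0.511, 1.04 and 0.778 in control. Clusters 3 and 12 of that class went the other way, at 1.13 and 0.973 in Nos3 null, against 1.44 and 2.35 in control. Cluster 12 was past the limit. Cdh1, unlike Cdh16 in most clusters, was higher in Nos3 null, above control in 17 of 20 clusters with a median log2 ratio of 0.45. Genes that span under 25 kb, as Cdh16 does, had a median log2 ratio of -0.12 for Nos3 null over control, where Cdh16 had -0.59. Between Klf4 dEC Nos3 null and Nos3 null the medians were 0.33 for those genes and 0.82 for Cdh16. Their part, and that of the lower mitochondrial sum, was not tested.

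**Figure D3:**
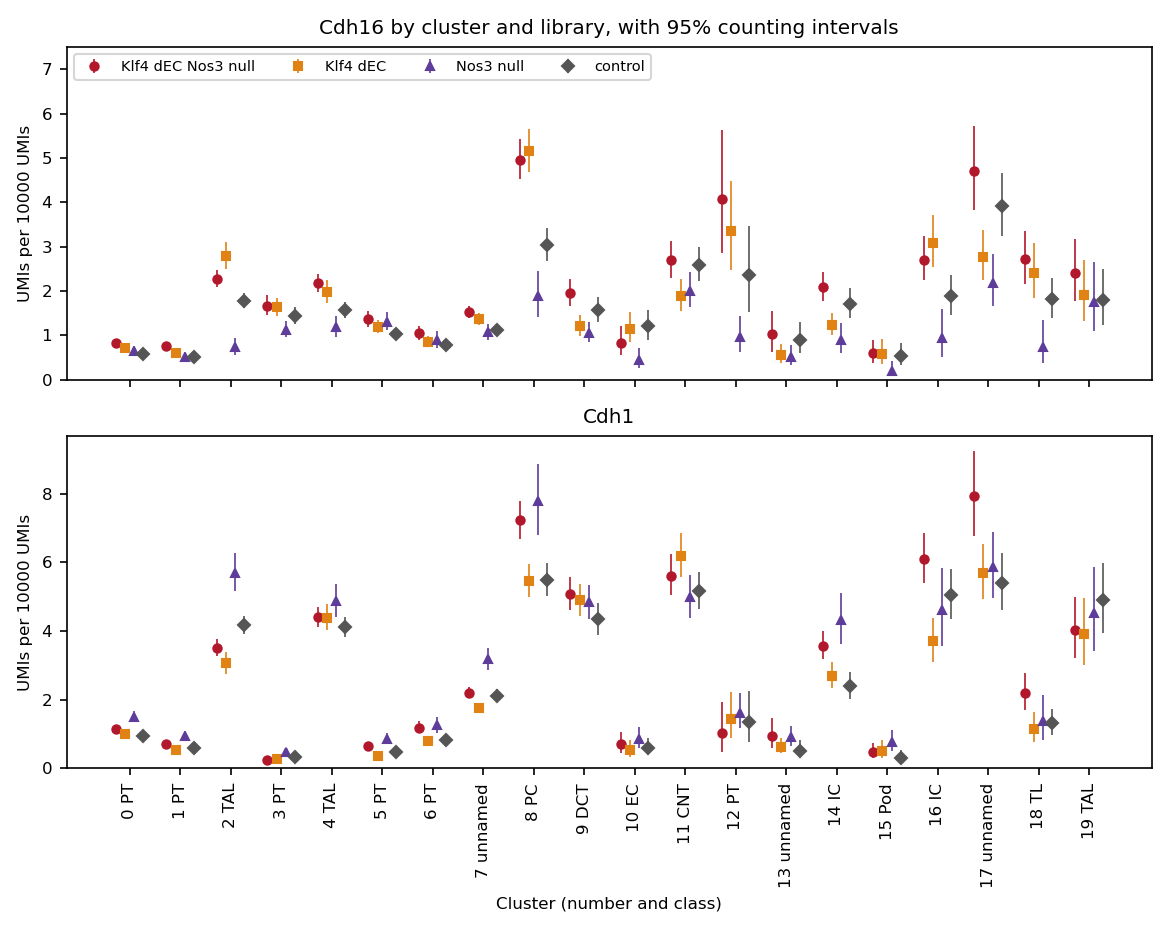
Cdh16 (top) and Cdh1 (bottom) in UMIs per 10000 in clusters 0 to 19, 1 point per library with its 95% counting interval. Cdh16 in Nos3 null is the lowest of the libraries in principal cell-like nuclei at 1.88, while Cdh1 there is 7.77 in Nos3 null, against 5.48 in control.

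Cdh18, a type II classical cadherin known from the central nervous system, varied between libraries and hardly between clusters. Its median over the 20 clusters was 0.141 in Klf4 dEC Nos3 null (range 0 to 0.255), 0.439 in Klf4 dEC (0.0231 to 0.618), 0.686 in Nos3 null (0.423 to 0.885), against 0.183 in control (0.0591 to 0.314). The ranges of Nos3 null and of control do not overlap, nor do those of Klf4 dEC Nos3 null and Nos3 null. Over the 20 clusters together the level was 0.159 (0.144 to 0.175) in Klf4 dEC Nos3 null, 0.444 (0.419 to 0.470) in Klf4 dEC, 0.685 (0.644 to 0.728) in Nos3 null, against 0.173 (0.158 to 0.189) in control. The inferred UMIs behind these were 412 in Klf4 dEC Nos3 null, 1144 in Klf4 dEC, 1032 in Nos3 null, against 498 in control. Nos3 null stood above control in 20 of 20 clusters, and Klf4 dEC above control in 19 of 20. Klf4 dEC Nos3 null stood below Nos3 null in 20 of 20 clusters and below control in 14 of 20.

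The share of the spread of log2(level + 0.1) that lay between libraries was 77.0% for Cdh18, against 9.19% between clusters. Over the 8733 genes that reached 0.5 in any of the 80 columns the medians were 5.82% between libraries and 69.9% between clusters. 25 genes (0.286%) had a library share at or over that of Cdh18. Of the other members, Cdh16 had the highest library share (14.9%). The nearest neighbour of Cdh18 on chromosome 15 among the members, Cdh12, 950 kb away, stood over the 20 clusters at 0.0264 in Klf4 dEC Nos3 null, 0.0251 in Klf4 dEC, 0.0177 in Nos3 null, against 0.0188 in control. Cdh18 spans 929 kb. Genes that span over 300 kb had a median log2 ratio of 0.20 for Nos3 null over control, where Cdh18 had 1.46, and -0.25 between Klf4 dEC Nos3 null and Nos3 null, where Cdh18 had -1.73.

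**Figure D4:**
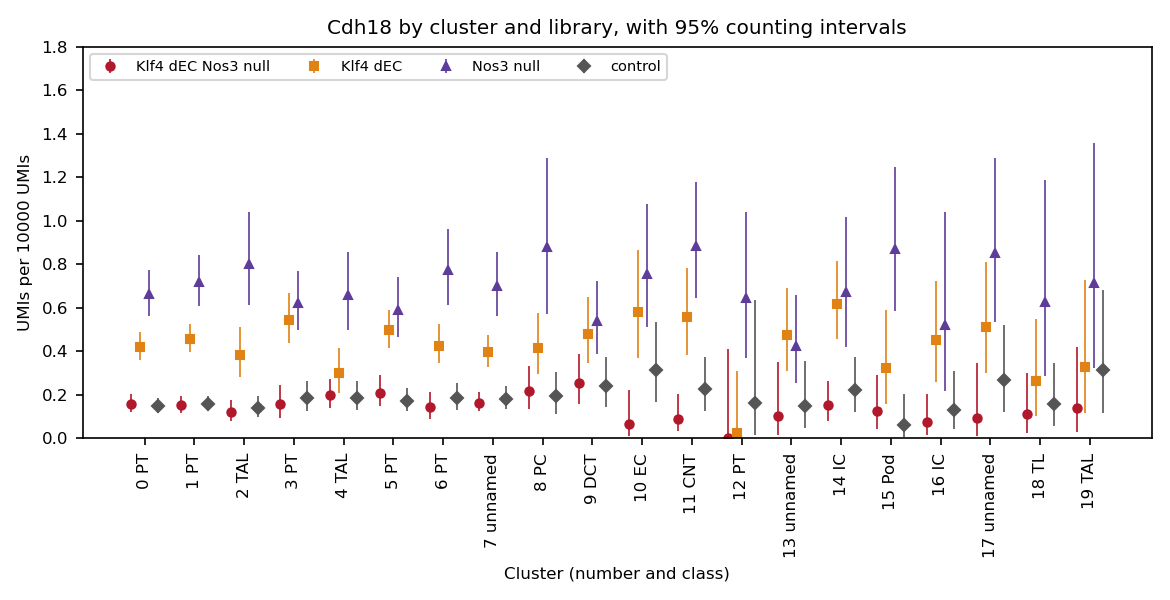
Cdh18 in UMIs per 10000 in clusters 0 to 19, 1 point per library with its 95% counting interval. The 20 Nos3 null points lie between 0.423 and 0.885 and the 20 control points between 0.0591 and 0.314.

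**Figure D5:**
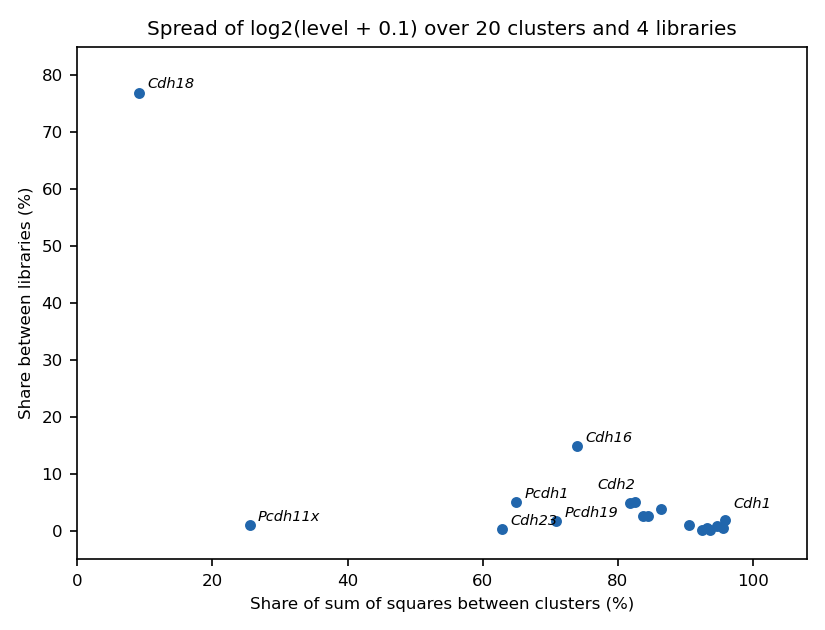
Share of the sum of squares of log2(level + 0.1) that lies between clusters (x axis, percent) and between libraries (y axis, percent), 1 point per member for 18 members. Cdh18 sits at 9.19% and 77.0%, Cdh16 at 73.9% and 14.9%, and Cdh1 at 95.9% and 1.81%.

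The catenins and other direct partners of the classical cadherins were measured in full (14 of 14 listed). Ctnna1, the widespread alpha-catenin, was at or over 0.5 in 23 of 23 clusters, and highest in distal convoluted tubule-like nuclei (7.88). Ctnna2 peaked in proximal tubule-like cluster 1 at 5.74 and Ctnna3 in cluster 13 at 5.36, with 2.88 in endothelial cell-like nuclei, so the 3 alpha-catenins led in different classes. Ctnnb1, beta-catenin, was at or over 0.5 in 23 clusters, with its highest mean at 1.59. Ctnnd1, p120-catenin, reached 0.5 in none, its highest mean being 0.307 in urothelium-like nuclei. Pkp4 (plakophilin 4) stood at 17.4 in thick ascending limb-like cluster 4, the highest of the partners. For Nos3 null over control, 13 of 180 partner and cluster pairs were higher and 3 lower (8.89%, against 10.8% of all pairs). For Klf4 dEC over control, 2 were higher and 3 lower of 172 (2.91%, against 4.15%). Between Klf4 dEC Nos3 null and Nos3 null, 4 were higher and 22 lower in Klf4 dEC Nos3 null of 184 (14.1%, against 13%). The share was 6.51%, against 5.40%, with Klf4 dEC in place of Nos3 null, and 2.91%, against 4.98%, with control. Among the listed processing enzymes and repressors of cadherin genes, Zeb1 led in endothelial cell-like nuclei (10.9) and Zeb2 in cluster 13, and Snai1, Snai2, Twist1 and Twist2 reached 0.5 in no cluster. Of the pairs of these 9 genes, 14 were higher and 0 lower of 74 for Nos3 null over control (18.9%, against 10.8% of all pairs). Between Klf4 dEC Nos3 null and Nos3 null, 1 was higher and 15 lower of 74 (21.6%, against 13%). For Klf4 dEC over control the share was 3.33%, against 4.15%. With Klf4 dEC Nos3 null set against Klf4 dEC it was 3.39%, against 5.40%. Set against control it was 3.33%, against 4.98%.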

How the data were processed

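Nuclear RNA of kidney cortex from 4 mouse genotypes, 1 library each, was read by 10X Chromium single-nucleus sequencing, per the labels' protocols. Cell Ranger, Seurat and the mm10 build were used, per the submitters' processing notes, with no versions or roles given. The deposited values are a normalized signal, the mean over the nuclei of a cluster and library of UMIs per 10000 UMIs: each of the 92 columns sums to 10000. Library titles gave the library of each column, and 0 columns were left unmatched. The clustering is the authors'. For the clustering method and the treatment of doublets, nothing is stated in the labels or headers used here.

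Nuclei numbers and UMI totals were inferred from the values with Python 3.11.15, NumPy 2.4.6, pandas 2.3.3 and SciPy 1.17.1. Low values that rest on 1 UMI are fractions whose denominators share the number of nuclei. That number was taken as the largest divisor of at least 85% of the reciprocals used (relative tolerance 2e-13). It divided at least 88.2% of them in each column, and its double at most 65.0%. The level equal to 3 counts in endothelial cell-like nuclei per 10000 was 0.0893 in Klf4 dEC Nos3 null, 0.0729 in Klf4 dEC, 0.0737 in Nos3 null, against 0.0717 in control, and up to 1.32 in the smallest column. The scripts were tested on simulated data. A cluster was named where the mean over a type's markers of the level, as a share of its highest cluster, reached 0.3 with a lead of 0.15 over the next type, with 3 or more markers at 0.5 and no other type holding more markers among the 10 leading genes. A cluster also stayed unnamed if it was shallow and the type had no marker among those 10. Shallow meant a median UMI total under 1/3 of the library's average over clusters, in every library. These limits were chosen with the table in view.

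Log2 ratios of (level + 0.1) were taken where the higher library reached 0.5, in clusters 0 to 19, since clusters 20 to 22 held few nuclei. With 1 library per group there is no test. The members and lists were chosen with earlier results of these data known. Members were named with values in every library where their highest cluster mean reached 5 or where they led a cluster, and in comparisons for the 3 highest and 3 lowest log2 ratios and all entering members in the endothelial cell-like cluster. Further members were described because their highest cluster was of interest, a choice made after their values were seen. Gene positions, spans and promoters came from RefSeq on GRCm38.p6. The planned description of protein tails was not run. The alternatives were another pseudocount, other entry levels, rescaling to the median, larger clusters, weighting by nuclei and leaving out each library. Leaving out Cdh18 was added after seeing the data.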

Additional observations from a re-analysis of the deposited data

Results flagged for a closer look

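For 4 pairs of a member and a cluster, the libraries that differ by the Klf4 label moved in opposite directions past the 2-fold limit on the 2 backgrounds. These are 4.71% of the 85 member pairs that entered both comparisons, and over all genes 320 of 74418 pairs (0.430%) did so. Of the 4, 3 are of Cdh18. In those clusters Cdh18 entered the first comparison only through Klf4 dEC and the second only through Nos3 null. These pairs repeat the shift of 1 gene between libraries and are not separate results, so the share is no measure of an excess. The difference between the backgrounds was not tested, since each group is 1 library. For Cdh18 in proximal tubule-like cluster 3 the log2 ratio was 1.18 for Klf4 dEC over control and -1.49 between Klf4 dEC Nos3 null and Nos3 null. In connecting tubule-like cluster 11 it was 1.01 and -2.37, and in intercalated cell-like cluster 14 it was 1.16 and -1.60. For Cdh2 in principal cell-like cluster 8 it was -1.49 and 1.04, with 1.04 UMIs per 10000 in Klf4 dEC Nos3 null and 0.452 in Nos3 null, and with 0.483 in Klf4 dEC, against 1.54 in control. Groups hold 1 library each, so no library could be set against others of its group.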

How the results depend on the processing

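The counts of member and cluster pairs past the 2-fold limit depended on the low levels of the members. In the order Klf4 dEC over control, Nos3 null over control, Klf4 dEC Nos3 null over Nos3 null, Klf4 dEC Nos3 null over Klf4 dEC and Klf4 dEC Nos3 null over control, they were 14, 41, 39, 13 and 8 as reported. The pairs that entered were 92, 114, 110, 91 and 86. With an added 0.5 in place of 0.1 the counts became 5, 6, 16, 5 and 1 of the same pairs. With no entry level they were 33 of 479, 65 of 479, 70 of 483, 32 of 485 and 28 of 486. With the entry level at 1 they were 5 of 57, 9 of 52, 11 of 58, 6 of 61 and 1 of 58. The number of pairs changes with the entry level, so a higher count need not be a higher share. Shares over all genes are given above for the entry level at 1 only, among these alternatives. With the 15 clusters of at least 100 nuclei in each library, Klf4 dEC over control gave 9 of 65 pairs. Klf4 dEC Nos3 null over control gave 3 of 59. Without Cdh18, the 3 comparisons in the middle gave 24, 21 and 8, and the direction of the first and second of these turned. With an added 0.5, Klf4 dEC Nos3 null over Nos3 null gave 9 higher and 7 lower. Rescaling to the median kept all 5 counts within 1.5 times. The number of members at or over 0.5 in the same leading cluster was 14 as reported and 11 to 14 without 1 library at a time. Cdh3, Cdh13 and Cdh16 had another leading cluster without Klf4 dEC, and Cdh3 without Klf4 dEC Nos3 null. Weighting by nuclei left it at 14. The 96 pairs at or over 0.5 became 62 at or over 1. Of 65 alternative levels of members in their leading clusters, 47 lay within the counting interval of the reported one. No paired analysis was possible because each genotype has 1 library. The 3-count level sets what depth can show, and it was highest in the smallest clusters of Nos3 null.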

Other observations

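Genes of the wider cadherin superfamily outside the symbol rule were found for 19 of 24 listed. Fat1, a giant cadherin of the podocyte slit diaphragm, was highest in podocyte-like nuclei at 3.30, with 3.39 in Klf4 dEC Nos3 null, 3.59 in Klf4 dEC, 2.81 in Nos3 null, against 3.41 in control. Podocyte-like nuclei otherwise had a low summed level of the members, 3.09 UMIs per 10000, the lowest of the 23 clusters, against 25.4 in urothelium-like nuclei. Arvcf, a catenin of the p120 group, also peaked in podocyte-like nuclei at 3.20, against a next highest mean of 0.847. The brush-border cadherin Cdhr5 was highest in proximal tubule-like cluster 12 at 0.873, and Clstn2, a calsyntenin, was highest in cluster 13 at 2.11. The desmosomal cadherin Dsg2 was highest in urothelium-like nuclei at 1.71, where Nectin4 stood at 1.00 and reached 0.5 in no other cluster.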
